A study of Mus musculus with 4 samples.

Results

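The expression profile of mouse DFAT cells treated with Y-27632, an inhibitor of the ROCK kinases, is described here against that of the same cells treated with the solvent DMSO. The members are all 34958 probe sets of the array that carry a single gene symbol, read on 2 of the 4 arrays of the series, and they stand for 18193 genes, of which 11600 were measured. A gene was called measured where its highest array reached 5.69, the median of all log2 values, and its value is that of its probe set with the highest mean. DFAT cells are fibroblast-like cells that arise when mature fat cells lose their lipid in culture. All cells were kept in DMEM with fetal bovine serum, and total RNA was extracted with Trizol and labelled as biotinylated cRNA. The 4 groups were DMSO treatment, Y-27632 treatment, transfection with a control siRNA and transfection with an siRNA against Mkl1, with 1 array in each. The labels give no dose, duration, passage or number of cultures, and they name no medium that would promote fat cell formation. With 1 array a side there is no replicate check and no test, and so few arrays limit how precise any value can be.

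ROCK kinases phosphorylate the myosin phosphatase subunit and the LIM kinases, which raises myosin II activity and holds actin in filaments. A smaller pool of free actin lets the coactivators Mrtfa (Mkl1) and Mrtfb enter the nucleus and act with the transcription factor Srf on genes of the cytoskeleton, and in cultured preadipocytes loss of this tension is known to accompany fat cell differentiation.

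The DMSO and control siRNA arrays are both controls, and they differed from each other. With control siRNA 111 genes stood above DMSO by 2-fold or more and 126 stood below it by as much, so many results are also given against control siRNA. Of the 56 gene lists, 19 had medians on opposite sides of 0 against the DMSO and the control siRNA array. The 18S ribosomal RNA control probe sets had a median difference of -0.48 (log2, Y-27632 minus DMSO), against 0.15 for control siRNA minus DMSO. The 3′ minus 5′ difference of the Actb control probe sets was 0.255 higher with Y-27632 and that of Gapdh 0.04 higher. Their part in the results was not tested. The cells carried the markers of fibroblasts on both arrays, with 10 of 10 such genes measured and a median difference of 0.05. Fat cell markers were present on the DMSO array too, with 7 of 10 at or above the filter level with DMSO and 9 with Y-27632. Of 10 macrophage or leukocyte markers with a probe set, 4 were measured. These were Csf1r, Cd14, Lyz2 and Cd3e, which reached the filter level on each array and had a median difference of -0.01. Ptprc, Cd68, Adgre1, Itgam, Tyrobp and Fcer1g stayed below the filter on every array. Of 9 endothelial markers 2 were measured, Kdr and Cldn5, and Pecam1, Cdh5, Tek, Tie1, Vwf, Emcn and Erg stayed below it.

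The difference between both arrays was one-sided. With Y-27632, 147 measured genes were at least 2-fold higher than with DMSO (1.27% of 11600) and 26 were at least 2-fold lower (0.224%), while the median gene differed by 0.00 and 50.4% of genes lay above DMSO. The higher genes also reached further. Of the 147, 31 were at least 4-fold and 11 at least 8-fold above DMSO, whereas none of the 26 reached 4-fold, and the median sizes were 1.41 and 1.25 on the log2 scale. For 36 of the 147 the DMSO signal lay below the filter level, where RMA compresses differences. All probe sets of a gene pointed the same way in 64 of the 82 higher genes and 9 of the 10 lower genes that had several. Fewer cells of a type and less RNA per cell cannot be told apart in such bulk RNA.

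Set against control siRNA, 236 genes were at least 2-fold higher with Y-27632 (2.03%) and 87 at least 2-fold lower (0.75%). Among the 147 genes above DMSO, 98 passed 2-fold from control siRNA as well, 35 were above it by less, and 14 lay on its other side. Among the 26 below DMSO, 10 passed 2-fold from control siRNA as well, 9 were below it by less, and 7 lay on its other side. Just inside the higher threshold stood Saa2 at 1.003, Clu at 1.008 and Casp1 at 1.009, and just outside it Car8 at 0.9997, Hopx at 0.998 and Ptgfr at 0.997. On the lower side Gm41724 at -1.003, Ifi213 at -1.07 and Gm38403 at -1.08 were the last inside, and Fads3 at -0.996, Ptprz1 at -0.98 and Gadd45g at -0.96 the first outside.

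**Figure D1:**
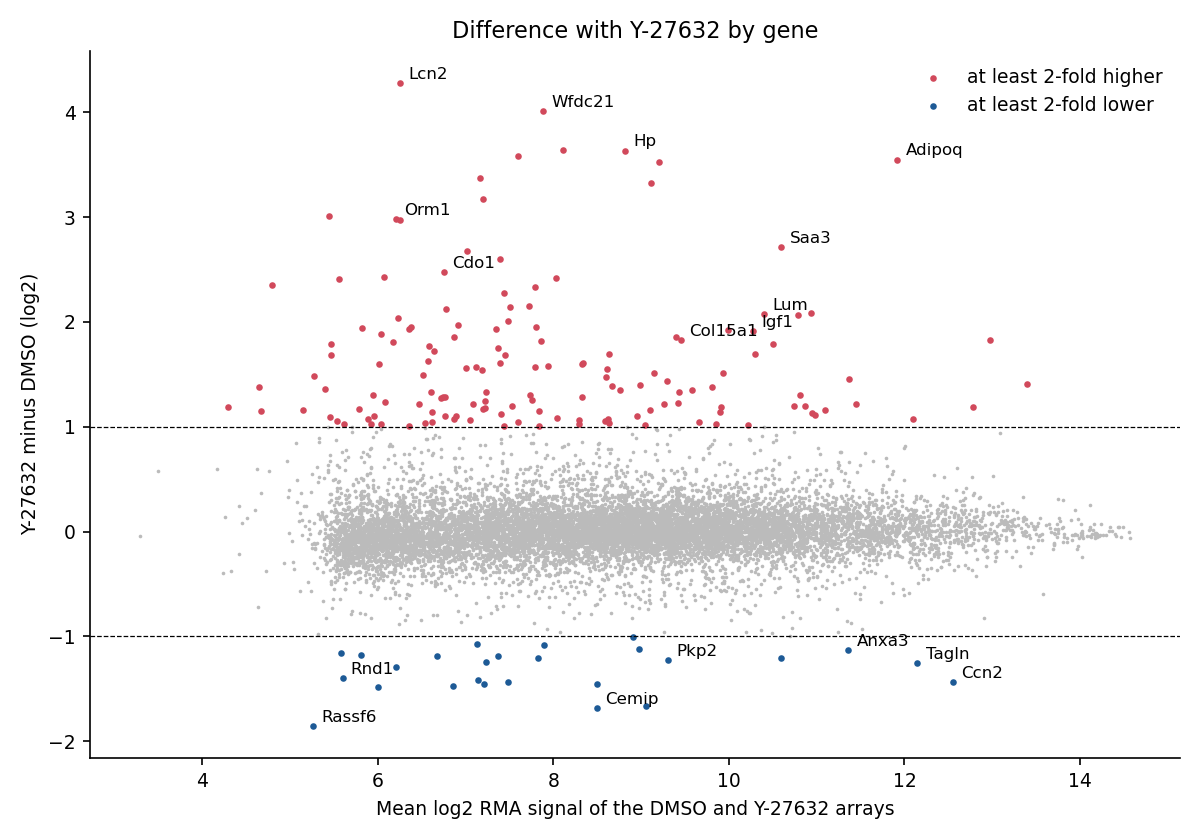
Each point is 1 of 11600 measured genes, with the mean log2 RMA signal of the DMSO and Y-27632 arrays on the x axis and Y-27632 minus DMSO (log2) on the y axis; dashed lines mark 2-fold. The 147 red points reach up to 4.28, whereas the 26 blue points reach down to -1.85.

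Of the genes lower with Y-27632, 10 stood at least 2-fold below both controls, 9 were below control siRNA by less, and 7 lay above it. The first of these groups holds a connective tissue growth factor, smooth muscle and junction genes, among others. Ccn2, a secreted matrix protein, had log2 signals of 13.26 with DMSO, 11.83 with Y-27632, 13.86 with control siRNA and 12.93 with Mkl1 siRNA. Tagln, the actin-bundling protein transgelin, stood at 12.77, 11.52, 13.16 and 12.20 on the same arrays. For both genes the Y-27632 array was the lowest of the 4, and the differences from DMSO were -1.43 and -1.25.

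Nrg1, a ligand of ErbB receptors, read 6.16 with DMSO, 5.01 with Y-27632, 6.70 with control siRNA and 6.25 with Mkl1 siRNA. Anxa3, a calcium-dependent phospholipid-binding protein, read 11.92, 10.79, 12.25 and 11.14, and Gna14, a Gq-class G-protein subunit, read 7.96, 6.77, 8.43 and 6.96. Against DMSO they differed by -1.16, -1.13 and -1.19, and against control siRNA by -1.69, -1.45 and -1.66. The desmosomal plaque protein Pkp2 differed by -1.23 and -1.06, and its 4 probe sets all lay below DMSO, from -1.23 to -0.39. Rassf6, an adaptor of the Ras-association family, was the furthest below DMSO at -1.85, from 6.19 to 4.34, and differed by -1.12 from control siRNA. Rnd1 read 6.30 and 4.90, a difference of -1.40, and Fgd3, an exchange factor for Cdc42, differed by -1.41. The 3 Fgd3 probe sets disagreed, from -1.41 to 0.07. The predicted gene Gm41724 completed these 10 at -1.003.

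The other lower genes were nearer to control siRNA or below DMSO on that array too. Cnn1 (calponin) differed from DMSO by -1.21 and from control siRNA by -0.81, and Ankrd1, a muscle ankyrin-repeat protein and YAP target, by -1.21 and -0.63. For the sialic-acid receptor Siglecg these values were -1.67 and -0.89, for the keratinocyte protein Kprp -1.29 and -0.95, for the sphingomyelinase Smpd3 -1.24 and -0.34, and for the lysozyme Lyz1 -1.19 and -0.44. Ptchd4 stood at -1.46 and -0.11, and the predicted genes Gm30873 and Gm38403 at -1.43 and -1.08 against DMSO and both at -0.22 against control siRNA. In 7 genes Y-27632 lay above control siRNA, with 0.07 for the hyaluronan-degrading Cemip, 1.15 for the glutamate transporter Slc1a6, 0.64 for the cornified envelope gene Sprr1a and 1.24 for Clca3a1. The interferon-induced Oas3, Irf7 and Ifi213 stood at 0.63, 0.07 and 1.31. DMSO was the highest of the 4 arrays for all 7.

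**Figure D2:**
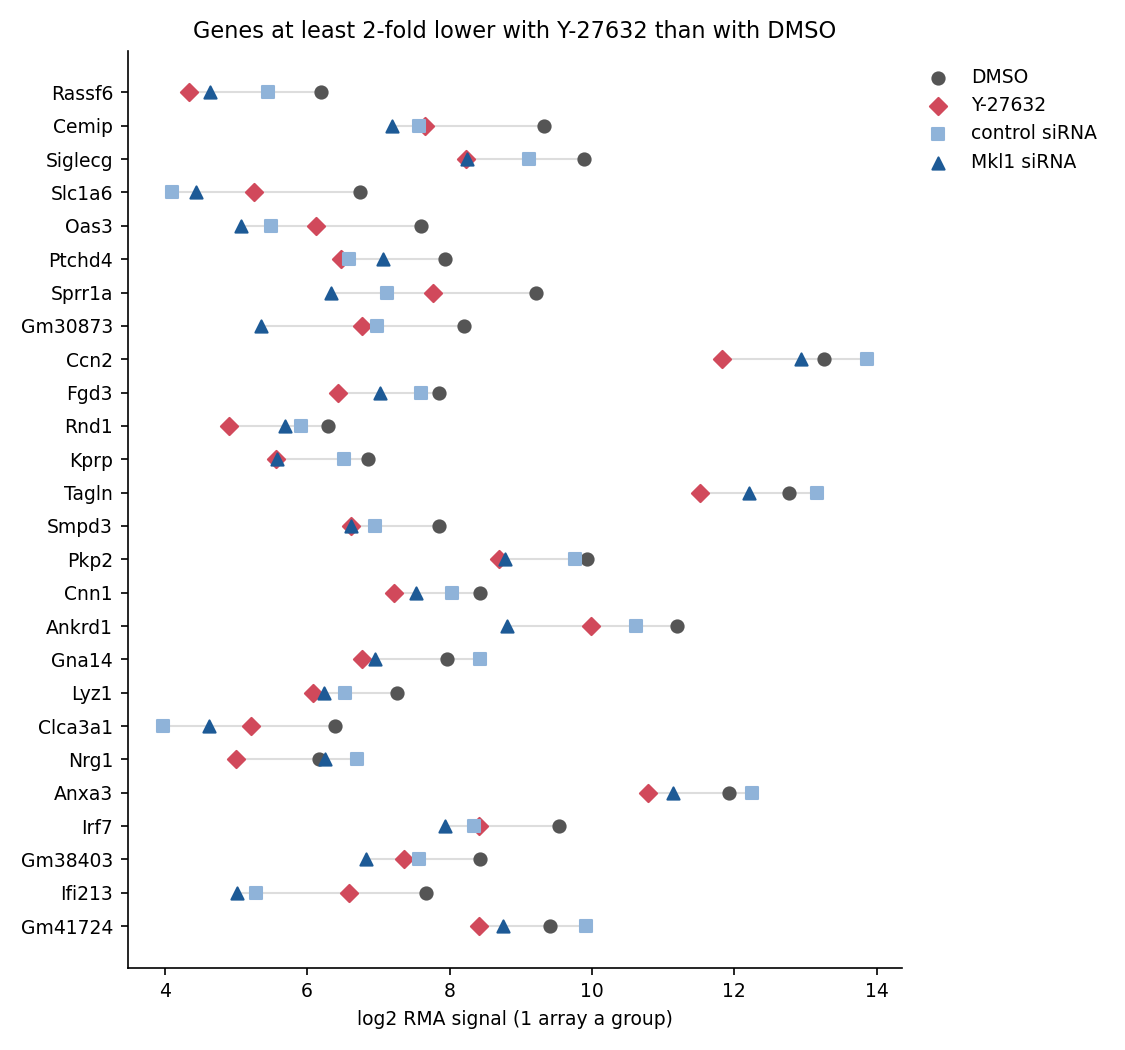
The 26 genes at least 2-fold lower with Y-27632 than with DMSO, ordered by that difference, with the log2 RMA signal of each of the 4 arrays (1 array a group) as separate symbols. For Ccn2, Tagln, Anxa3, Gna14 and Gm41724 both control arrays lie to the right of both treated arrays, while Oas3, Sprr1a and Slc1a6 have DMSO alone on the right.

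The inhibited kinase and the transcription factors that act after it differed little. Rock1 read 11.11 with DMSO and 11.01 with Y-27632, a difference of -0.10. Rock2 was not analysed here. Mrtfa, Mrtfb and Srf differed by -0.14, -0.23 and -0.21, and Mrtfa read 8.55 with control siRNA and 7.70 with the siRNA against it.

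The structural genes downstream lay mostly just below DMSO. In the list of actin assembly and crosslinking proteins 27 of 34 measured members were below DMSO, none by 2-fold, with a median of -0.08. In the list of myosin, tropomyosin and contractile regulators 21 of 26 were below it, with a median of -0.23, and Tagln and Cnn1 were 2-fold lower. Over all measured genes the median was 0.00. The medians against control siRNA were -0.14 and -0.23, and control siRNA minus DMSO had medians of 0.00 and 0.02. Among these members Diaph3, a formin that nucleates actin, differed by -0.78, the smooth muscle actin Acta2 by -0.59, the filament crosslinker Flna by -0.43 and the filament-stabilising tropomyosin Tpm1 by -0.44. Actb and Actg1, the cytoplasmic actins, differed by -0.14 and -0.17. On the other side were Mylk, the myosin light chain kinase, at 0.58 and Smtn, the contractile-cell protein smoothelin, at 0.33. Of 21 microtubule genes 16 were below DMSO (median -0.14, or -0.29 against control siRNA), with the neuronal-type protein Map1b at -0.65.

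Promoters of the contractile genes were searched for the CArG box, the element that Srf binds, because Srf acts with Mrtfa on genes of the cytoskeleton. Within 250 bases before the start, 4 of 23 members of the myosin list and 2 of 29 of the actin list with a promoter entry held it. Over all measured genes with an entry the share was 1.496%. Of such genes at least 2-fold lower none of 17 held it, and of those at least 2-fold higher 2 of 109 did. The other lower genes, Tagln and Ccn2 among them, had no promoter entry and were not searched. Actb had no entry either. All 6 list members with the box, Myl9, Cnn2, Myl6, Myo1e, Actg1 and Lima1, lay below DMSO by less than 2-fold. Of all measured members of the myosin and actin lists, 21 of 26 and 27 of 34 lay below DMSO. For genes outside these lists that hold the box, the direction was not counted. The stretches around 3 of these boxes are given here, from RefSeq promoter sequence of GRCm38.p6, with the box in capitals. Myl9 (chr2:156775273-156775342, plus strand) encodes a myosin light chain and differed by -0.28. Cnn2 (chr10:79988514-79988583, plus strand), a calponin, differed by -0.33, and Actg1 lies on the minus strand (chr11:120348546-120348615).
Myl9: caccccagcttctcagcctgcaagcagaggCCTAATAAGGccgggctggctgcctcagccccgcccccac
Cnn2: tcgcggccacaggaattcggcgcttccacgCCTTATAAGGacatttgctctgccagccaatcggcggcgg
Actg1: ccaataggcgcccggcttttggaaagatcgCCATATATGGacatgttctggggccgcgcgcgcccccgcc

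Adhesion and tension-responsive genes leaned the same way. In the list of YAP and TAZ targets, genes switched on when cells are spread and tense, 18 of 23 were below DMSO, with a median of -0.28, and the median against control siRNA was -0.29. Beside Ccn2 and Ankrd1, Crim1, a membrane protein that binds BMPs, differed by -0.96 and the angiomotin Amotl2 by -0.74. Of 33 integrin and focal adhesion genes 24 were below DMSO, with a median of -0.12, or -0.24 against control siRNA. Fhl1, a LIM-domain protein, differed by -0.96, Pdlim1 by -0.61, Lims2 by -0.60 and Itgbl1 by -0.59. The furthest members on the higher side were a pair of integrin subunits. Itga8, the nephronectin-binding subunit, read 6.999 with DMSO, 8.57 with Y-27632, 7.78 with control siRNA and 9.13 with Mkl1 siRNA. It was thus 1.57 above DMSO and 0.79 above control siRNA. The laminin-binding Itga6 was higher by 0.93 and, against control siRNA, by 1.02.

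Of 11 intermediate filament and cornified envelope genes 9 were below DMSO, and the list median was -0.28. The keratins Krt7 and Krt19 differed by -0.89 and -0.83 and Sprr1a by -1.45, whereas Krt10 was higher by 0.56. Against control siRNA the median was -0.10, and Krt7 stood at 0.54. Cell-cell junction genes were spread around DMSO, with 10 of 24 above it and a median of -0.02. Pkp2 was alone past 2-fold, and the adhesion proteins Alcam and Cdh11 were higher by 0.92 and 0.82.

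Among the largest differences outside the fat cell genes were those of acute phase and antimicrobial proteins, a group of secreted defence proteins best known from liver and from inflamed tissue, several of which fat cells also release. Of 16 measured members 12 were above DMSO and 10 were at least 2-fold higher, with a median of 1.29, or 0.89 against control siRNA. Lcn2, a lipocalin that withholds bacterial siderophores, read 4.11 with DMSO, 8.39 with Y-27632, 5.94 with control siRNA and 8.21 with Mkl1 siRNA. Wfdc21, a small protein with a whey acidic protein domain, read 5.88, 9.89, 6.10 and 9.34. The ratios to DMSO were 19.4 and 16.1.

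Orm1, the plasma protein orosomucoid, read 4.71 with DMSO, 7.69 with Y-27632, 4.77 with control siRNA and 7.63 with Mkl1 siRNA. Hp, the haemoglobin scavenger haptoglobin, read 7.002, 10.64, 9.75 and 11.58. For Orm1 both control arrays were low and both treated arrays high, whereas for Hp DMSO alone was low, so that its difference was 3.63 from DMSO and 0.89 from control siRNA.

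The serum amyloid A genes had another pattern. Saa3, the form made in fat and macrophages, read 9.24 with DMSO, 11.95 with Y-27632, 8.91 with control siRNA and 9.16 with Mkl1 siRNA. Saa1 read 6.30, 8.57, 6.32 and 4.60, and Saa2 read 5.85, 6.85, 5.96 and 4.91. For all 3 the Y-27632 array was the highest of the 4 and the Mkl1 siRNA array did not stand above both controls. Saa1 and Saa2 are near copies of each other, so their probe sets may share signal. The differences from DMSO were 2.71, 2.28 and 1.003.

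Metal-handling members were also higher. Cp, the copper ferroxidase ceruloplasmin, read 8.29 with DMSO, 9.69 with Y-27632, 7.16 with control siRNA and 7.63 with Mkl1 siRNA, and its 8 probe sets ran from 0.25 to 1.46. Steap4, a metalloreductase, was higher by 1.48 and S100a8, a subunit of calprotectin, by 1.19, although 1 of the 2 Steap4 probe sets stood at -0.01. The metallothioneins Mt2 and Mt1 were higher by 0.86 and 0.58. On the other side the pentraxin Ptx3 differed by -0.94 and the cathelicidin Camp by -0.22, and Slpi and Wfdc2 by -0.12 and -0.07. Of these 10, 7 also passed 2-fold from control siRNA. With Mkl1 siRNA against control siRNA, 6 of the 10 stood 2-fold or more above (1.79% of all measured genes did) and Saa1 and Saa2 2-fold or more below (1.74%), and the difference between both treatments was not tested. Over 10 markers of macrophages or leukocytes, of which 4 were measured, the mean log2 level was 5.08 with DMSO and 5.01 with Y-27632.

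**Figure D3:**
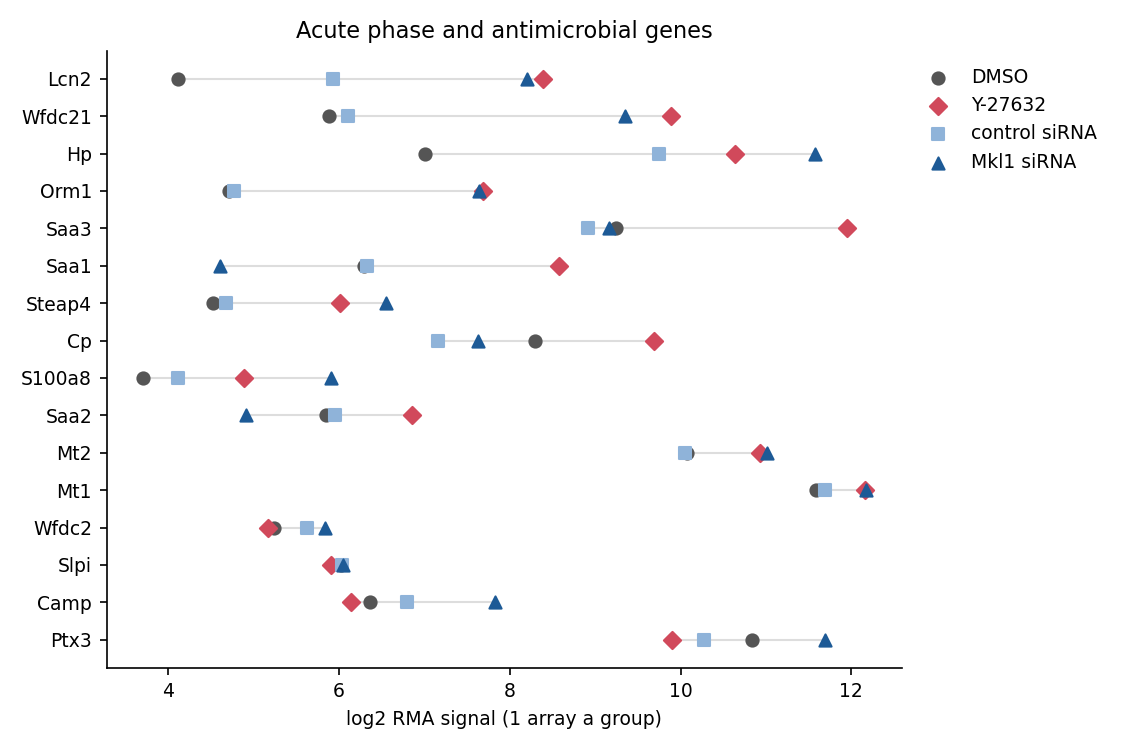
The 16 measured acute phase and antimicrobial genes, ordered by Y-27632 minus DMSO, with the log2 RMA signal of each of the 4 arrays (1 array a group) as separate symbols. For Wfdc21 and Orm1 both controls sit low and both treated arrays high, whereas for Saa3, Saa1, Saa2 and Cp the Y-27632 array alone is on the right.

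The promoters of this group were searched for TTNNGCAA on either strand, letters found in many sites of the C/EBP factors. C/EBP proteins are known activators of acute phase genes. Cebpa was higher with Y-27632, by 1.11 than DMSO and 0.53 than control siRNA, and any part of it in these genes was not tested. Of the 10 higher genes 7 have a promoter entry, and 6 of these hold the letters within 250 bases before the start, while S100a8 does not. Over the whole list it was 9 of 13, against 8.76% of all measured genes with an entry. The list of fat cell genes held it in 2 of 10, and the 147 higher genes in 17 of 109. A match describes these letters only, and members not higher by 2-fold, Slpi, Ptx3 and Mt2, hold them too. The stretches with the match in capitals, from RefSeq GRCm38.p6, come from Lcn2 (chr2:32387918-32387985, minus), Saa1 (chr7:46743125-46743192, minus), Saa2 (chr7:46751620-46751687, plus), Saa3 (chr7:46715738-46715805, minus), Cp (chr3:19957149-19957216, plus) and Steap4 (chr5:7960355-7960422, plus).
Lcn2: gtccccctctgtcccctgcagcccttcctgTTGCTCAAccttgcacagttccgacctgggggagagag
Saa1: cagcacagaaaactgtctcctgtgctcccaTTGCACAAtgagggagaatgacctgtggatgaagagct
Saa2: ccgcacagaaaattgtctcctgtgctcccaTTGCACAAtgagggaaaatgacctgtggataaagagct
Saa3: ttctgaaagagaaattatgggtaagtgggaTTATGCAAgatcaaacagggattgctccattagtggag
Cp: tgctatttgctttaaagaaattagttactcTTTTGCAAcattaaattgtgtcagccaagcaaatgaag
Steap4: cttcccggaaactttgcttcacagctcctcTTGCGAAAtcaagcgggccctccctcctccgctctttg

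Other immune genes did not follow. Among 27 measured interferon-stimulated genes none was above DMSO and the median was -0.60, with Oas3 and Irf7 past 2-fold, the antiviral synthase Oas1a at -0.93 and the ISG15 protease Usp18 at -0.87. Against control siRNA the same list had a median of 0.08 with 20 of 27 above 0, since control siRNA minus DMSO was -0.79. Oas1a read 11.98 with DMSO, 11.05 with Y-27632, 10.57 with control siRNA and 10.69 with Mkl1 siRNA, so that DMSO was the highest array. MHC class I presentation genes showed the same turn at a smaller size, with a median of -0.16 against DMSO and 0.16 against control siRNA. Tap1, the peptide transporter, differed by -0.45 from DMSO. For both lists the side of 0 depended on the control used.

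The core of the interferon response element, searched as GAAANNGAAA on either strand within the same window, was found in 11 of 21 members with an entry, against 3.08% of all measured genes. It is shown in capitals for the member furthest below DMSO, Oas3 (chr5:120777695-120777764, minus), and for Oas1a (chr5:120907526-120907575, minus), where a pair of matches overlap.
Oas3: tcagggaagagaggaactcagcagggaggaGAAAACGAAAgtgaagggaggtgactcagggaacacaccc
Oas1a: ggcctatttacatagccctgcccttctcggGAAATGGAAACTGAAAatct

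Of 15 measured chemokines 7 were above DMSO, with a median of -0.03. Ccl11, the eosinophil attractant eotaxin, read 10.64 with DMSO, 12.10 with Y-27632, 12.72 with control siRNA and 9.15 with Mkl1 siRNA, so it was 1.46 above DMSO and -0.62 from control siRNA. Cxcl14 was 1.02 above DMSO and -1.26 from control siRNA. Ccl5 and Cxcl1 differed from DMSO by -0.69 and -0.62. Of 9 complement genes 7 were below DMSO, and their median was -0.18. Of the other two, Clu, a chaperone that restrains complement, stood at 1.01, with 4 probe sets from 1.01 to 2.58, and Cd59a, which blocks the membrane attack complex, at 0.00.

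Cytokinesis genes, which encode the contractile ring and midbody that ROCK also serves, were all 16 below DMSO, with a median of -0.47. Cep55, a midbody scaffold, differed by -0.67, the ring organiser Anln by -0.60 and the chromosomal passenger Cdca8 by -0.59. Control siRNA lay as far below DMSO, with a median of -0.42, and against it the Y-27632 median was -0.02. G1 cyclins, CDK inhibitors and pocket proteins were near DMSO, with a median of 0.08 and 13 of 22 above it. The G0/G1 switch gene G0s2, which also inhibits fat cell lipase, was higher by 0.88 and the retinoblastoma gene Rb1 by 0.43.

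Genes of mitochondrial fuel use mostly stood above DMSO, by small differences in RNA signal. Of 28 genes of the pyruvate dehydrogenase complex and the citric acid cycle 25 were above DMSO, with a median of 0.21. Of 23 genes of branched-chain amino acid breakdown it was 20, with a median of 0.25, of 19 fatty acid oxidation genes 18, with a median of 0.21, and of 41 respiratory chain and ATP synthase genes 38, with a median of 0.18. The spread of single genes was wider than these medians, with an SD of 0.31 over all measured genes. For control siRNA minus DMSO that SD was larger, at 0.36. Against control siRNA the medians were 0.27, 0.24, 0.12 and 0.09, and control siRNA minus DMSO gave 0.02, 0.01, 0.14 and 0.09. For the last pair of lists, then, the controls differed about as much as Y-27632 differed from control siRNA.

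Only 2 of these genes passed 2-fold. Pcx, pyruvate carboxylase, which refills the citric acid cycle and serves fatty acid synthesis, read 8.47 with DMSO, 10.33 with Y-27632, 8.60 with control siRNA and 10.74 with Mkl1 siRNA. Aldh6a1, the methylmalonate semialdehyde dehydrogenase of valine breakdown, read 8.90, 10.25, 8.84 and 10.31. In both genes the control arrays lay close together and the treated arrays at least 2-fold above them, with differences of 1.86 and 1.35 from DMSO. Control probe sets of the array for Pcx, which the gene values leave out, disagreed. They ran from 0.08 to 1.77, with the 5′ set at 0.13. Hibch, an earlier enzyme of the valine pathway, was higher by 0.90 than DMSO and by 0.92 than control siRNA. Its 2 probe sets stood at 0.90 and 1.03. The pyruvate carrier Mpc1 was higher by 0.64, the malate dehydrogenase Mdh1 by 0.54 and the medium-chain acyl-CoA dehydrogenase Acadm by 0.54. On the lower side were the kinase Pdk4, which switches pyruvate dehydrogenase off, at -0.56 and the cytosolic transaminase Bcat1 at -0.43. Cox7a1, a cytochrome oxidase subunit, was the furthest respiratory gene at 0.60.

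Of 24 peroxisome genes 21 were above DMSO. Their median was 0.38, but 0.16 against control siRNA. Ephx2, the soluble epoxide hydrolase, read 6.33 with DMSO, 7.40 with Y-27632, 5.17 with control siRNA and 6.73 with Mkl1 siRNA, which put it 1.07 above DMSO. The bifunctional oxidation enzyme Ehhadh was higher by 0.95, the biogenesis factor Pex16 by 0.79, the division factor Pex11a by 0.65 and catalase (Cat) by 0.49. The 2 Pex16 probe sets disagreed, at -0.24 and 0.79.

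Lipid handling genes differed by more. Of 21 glycerolipid genes 15 were above DMSO and 8 at least 2-fold, with a median of 0.29. Agpat2, which acylates lysophosphatidic acid, read 9.03 with DMSO, 10.96 with Y-27632, 8.94 with control siRNA and 10.59 with Mkl1 siRNA, and Gpat3, which takes the step before it, read 6.82, 8.78, 5.70 and 9.26. Both steps and the last one, by Dgat2 at 3.33 and Dgat1 at 1.38, stood above both controls. So did the lipases Lipe at 2.60 and Pnpla2 at 1.28, while Mgll, which cleaves the last acyl chain, was at -0.04. The remaining members past 2-fold were Gpd1 and Chpt1, at 1.28 and 1.03, and Chpt1 was 0.68 above control siRNA. The 2 Lipe probe sets disagreed, at -0.16 and 2.60, and the 4 Gpd1 probe sets ran from -0.10 to 1.60. All 13 measured genes of the fat cell list were above DMSO, 11 of them at least 2-fold, with Pparg at 1.23, Adipoq at 3.55 and Cebpa at 1.11. Adig (adipogenin) differed by 3.59, the hormone resistin (Retn) by 3.53, the fatty acid receptor Cd36 by 3.37 and the lipid droplet protein Cidec by 3.18. The fatty acid carrier Fabp4 was already at 12.70 with DMSO and differed by 1.41. Outside the list Lgals12, a galectin of fat cells, stood at 2.97. Against control siRNA Pparg was 0.93 above, Cebpa 0.53 and the list member Agt 0.30, all short of 2-fold.

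The list of hypoxia-responsive and glycolysis genes was near DMSO, with 15 of 24 above it and a median of 0.07. Against control siRNA 18 of 24 were above, with a median of 0.24, and control siRNA minus DMSO had a median of -0.18. Within the list 2 isoform genes stood out. Pfkfb3, which makes the activator of phosphofructokinase, read 6.64 with DMSO, 8.798 with Y-27632, 6.49 with control siRNA and 8.91 with Mkl1 siRNA, though its other probe set differed by -0.02. Ldhb, the lactate dehydrogenase subunit favoured in oxidative tissue, read 7.16, 8.73, 7.57 and 9.35, and its 4 probe sets ran from 1.09 to 1.79. Both were low on both controls and high on both treated arrays. The lactate transporter Slc16a1 was higher by 0.68. The mitochondrial carbonic anhydrase Car5b, which supplies bicarbonate to pyruvate carboxylase, was higher by 2.01, with its 2 probe sets at 2.01 and 2.86.

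Genes of redox and small-molecule metabolism were mixed. Of 32 oxidant defence genes 20 were above DMSO, with a median of 0.06, or -0.22 against control siRNA. Mgst3, a microsomal glutathione transferase, was higher by 1.11 and Gstz1, of tyrosine breakdown, by 1.03, or by 0.26 and 1.22 against control siRNA, while the superoxide-producing oxidase Nox4 differed by -0.68. Pentose phosphate genes had 5 of 11 above DMSO, with Idh1, a cytosolic source of NADPH, at 0.70 and Me3 at -0.58. In the retinoid, aldehyde and steroid list 18 of 25 were above DMSO with a median of 0.30. Cbr2, a carbonyl reductase, was higher by 1.33, Aldh1a7, an aldehyde dehydrogenase, by 1.22 and Hsd11b1, which regenerates active glucocorticoid, by 0.80. Of 27 sterol genes 19 were above DMSO, with a median of 0.19, but -0.05 against control siRNA. Their furthest members restrain or export sterol, with Insig1 at 1.33, Abcg1 at 0.89, Insig2 at 0.64 and Abca1 at 0.63.

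Of 18 glucocorticoid-responsive genes 14 were above DMSO (median 0.28, or 0.39 against control siRNA). This list shares Lcn2, Mt1 and Mt2 with the acute phase list. Klf15, a metabolic transcription factor, was higher by 1.04, whereas the growth arrest gene Gadd45g and the phosphatase Dusp1 differed by -0.96 and -0.55. Of 24 iron, haem and copper genes 18 were above DMSO (median 0.08), led by Cp and Steap4, followed by the haem scavenger Hpx at 0.76 and the iron exporter Slc40a1 at 0.59. Of 20 amino acid transporters 11 were above DMSO and 15 above control siRNA, with medians of 0.09 and 0.38. Slc36a2, a carrier of small amino acids, read 5.09 with DMSO, 6.98 with Y-27632, 5.08 with control siRNA and 7.15 with Mkl1 siRNA.

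**Figure D4:**
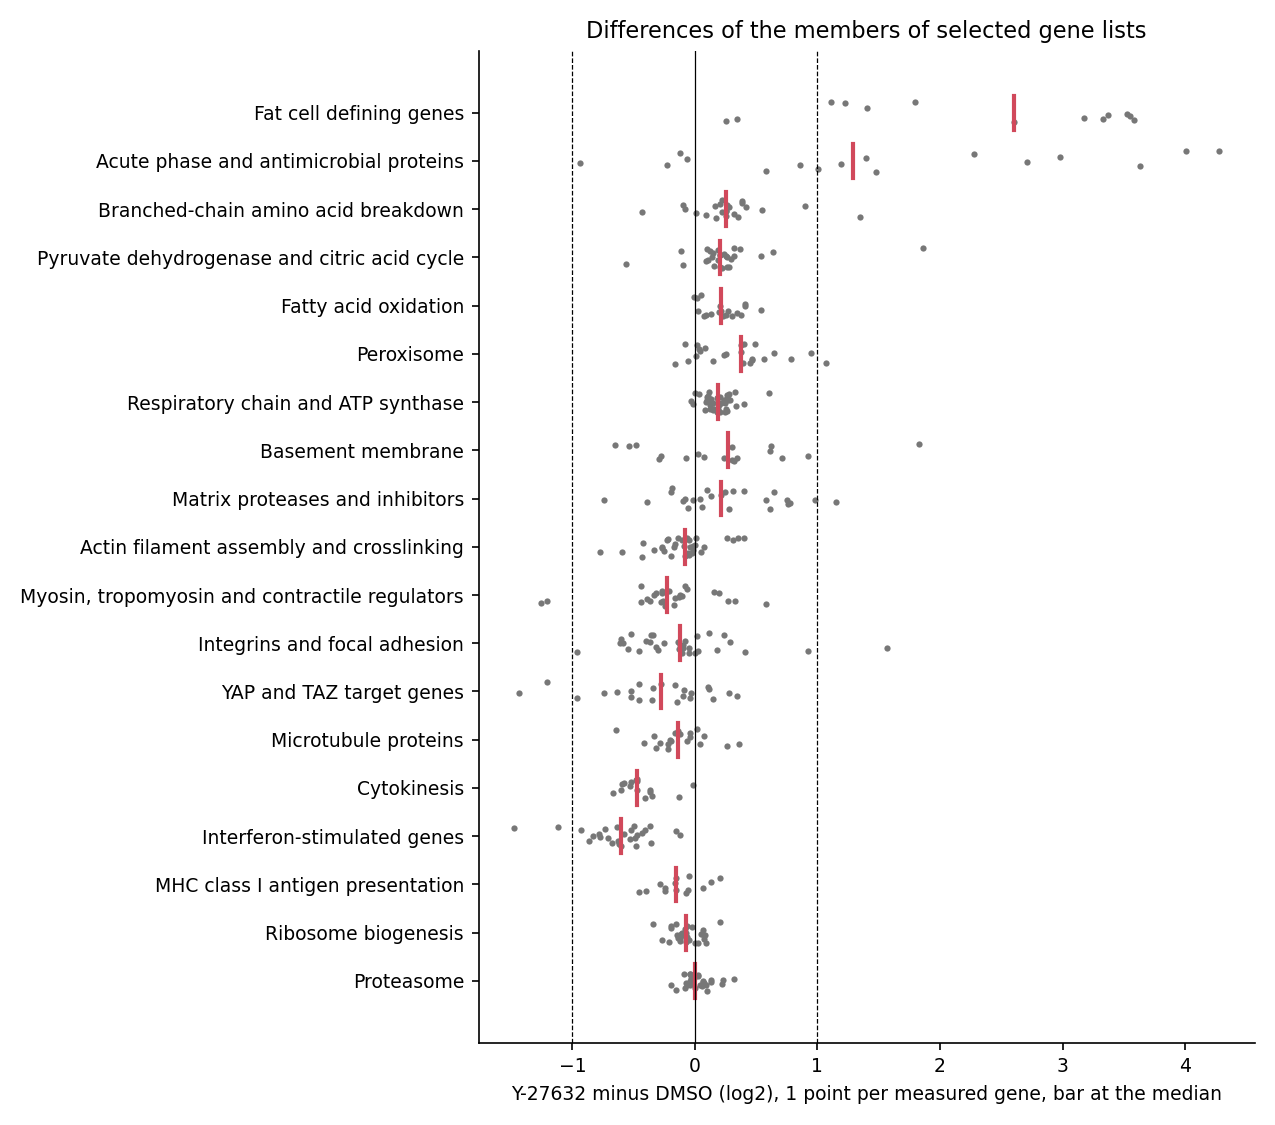
Y-27632 minus DMSO (log2) of each measured member of selected gene lists (1 point a gene), with a red bar at the list median and dashed lines at 2-fold. Acute phase genes run from -0.94 to 4.28 around a median of 1.29, all 27 interferon-stimulated genes lie below 0, and the respiratory chain list forms a narrow group just above it with a median of 0.18.

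Matrix genes divided by class. Fibrillar collagens and their processing enzymes were at DMSO, with 15 of 27 above it, a median of 0.02 and no member past 2-fold. Against control siRNA their median was -0.16. Basement membrane genes had 12 of 18 above DMSO and a median of 0.27, or 0.40 against control siRNA. Col15a1, a collagen of the basement membrane zone that is abundant around fat cells, read 8.54 with DMSO, 10.36 with Y-27632, 8.70 with control siRNA and 8.29 with Mkl1 siRNA. Here Y-27632 alone was high, by 1.82. Lama2 and Lama4, laminin alpha chains, were higher by 0.92 and 0.62 and Lamc1 by 0.61, whereas Smoc2 and Col4a5 differed by -0.65 and -0.54.

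Matrix proteases and inhibitors had 17 of 25 above DMSO with a median of 0.21. The stromelysin Mmp3 was higher by 1.15, or 0.57 against control siRNA, and the membrane protease Adam12 by 0.98, and the plasminogen activator inhibitor Serpinb2 differed by -0.74. The elastic fibre and matricellular list had 10 of 25 above DMSO, with a median of -0.10. Its members went far in both directions, from Mgp, which inhibits calcification, at 2.07 to Ccn2 at -1.43. Mgp read 9.76 with DMSO, 11.82 with Y-27632, 12.56 with control siRNA and 10.17 with Mkl1 siRNA, so it was -0.74 from control siRNA. Sparcl1 and Fbln1 were higher by 1.49 and 1.04, or 0.31 and 0.17 against control siRNA, and the elastin-binding Fbln5 differed by -0.96 and -1.17. Among small leucine-rich proteoglycans Lum was higher by 2.08 and Dcn by 0.95, and the other 6 measured members lay between -0.33 and 0.13. Lum read 9.36 with DMSO and 11.43 with Y-27632 but 5.08 and 4.91 on the siRNA arrays, so DMSO and control siRNA were further apart than DMSO and Y-27632. In the hyaluronan and glycosaminoglycan list, with a median of -0.02, the receptor Cd44 differed by -0.58 and Cemip was past 2-fold.

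Signalling genes showed single members rather than whole lists. Igf1, the insulin-like growth factor, read 9.32 with DMSO, 11.23 with Y-27632, 9.41 with control siRNA and 9.53 with Mkl1 siRNA. Its 4 probe sets agreed, from 1.85 to 2.03, and Y-27632 alone stood apart. The insulin and IGF list as a whole had a median of 0.03, with the phosphodiesterase Pde3b, which carries the antilipolytic action of insulin, at 1.22, the binding protein Igfbp4 at 0.84, and the glucose transporter Slc2a4 and its regulator Tbc1d4 at 0.74 and 0.76.

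Hgf, the ligand of the Met receptor, read 6.59 with DMSO, 8.20 with Y-27632, 8.11 with control siRNA and 8.34 with Mkl1 siRNA. It was thus 1.61 above DMSO and 0.09 above control siRNA. Ngfr, the low-affinity neurotrophin receptor, read 9.31, 10.50, 7.42 and 6.87. Among 27 growth factor and receptor genes 17 were above DMSO, and Axl and Hbegf differed by -0.64 and -0.59.

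In the cAMP and cGMP list the cAMP-degrading enzymes Pde7b and Pde3b and the protein kinase A subunit Prkar2b were higher by 1.81, 1.22 and 1.02, with a list median of 0.13. Against control siRNA Prkar2b was 0.45 above. The 3 Pde7b probe sets ran from 0.12 to 1.81. Agtr2, the second angiotensin receptor, was higher by 1.94 and Gna14 lower, while the list of G-protein-coupled receptors and regulators had a median of -0.07. Agtr2 read 4.85 with DMSO, 6.79 with Y-27632, 2.68 with control siRNA and 2.63 with Mkl1 siRNA.

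The MAPK feedback and immediate early genes had a median of -0.08 against DMSO and 0.24 against control siRNA, with 25 of 30 above the latter. Of these the ERK inhibitor Spry4 was higher by 1.14 and, against control siRNA, by 1.34, and the zinc-finger factors Egr2 and Egr3 by 1.55 and 1.56. Egr2 lay at 0.55 and Egr3 at -0.31 from control siRNA, and the other Egr3 probe set differed from DMSO by -0.22. In the TGF-beta and BMP list, with a median of 0.08, or -0.11 against control siRNA, the activin subunit Inhbb and the inhibitor of differentiation Id2 were higher by 1.60 and 1.26 but at -0.38 and -0.09 from control siRNA. The other Inhbb probe set differed from DMSO by -0.06. The activin antagonist Fst differed by -0.55. Wnt genes had a median of 0.02, or -0.18 against control siRNA, with Wnt5a, a ligand of the noncanonical branch, at 1.07 and Rspo2, which amplifies Wnt signals, at -0.61. Of the guidance genes Sema7a, Slit2 and Sema6d were higher by 1.44, 1.25 and 1.08, or 0.71, -0.47 and 0.12 against control siRNA, and the receptor Epha2 differed by -0.71. The 4 Sema6d probe sets ran from -0.17 to 1.08. Notch and Hedgehog genes had 15 of 21 above DMSO and a median of 0.16, with Notch4 at 0.68. Of the adipose progenitor and stromal surface markers, with 11 of 17 above DMSO and a median of 0.06, or -0.12 against control siRNA, Cd34 and Pi16 were higher by 1.79 and 1.69 and Anxa3 was past 2-fold on the lower side. The other Pi16 probe set differed from DMSO by -0.07.

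Several other lists had medians close to 0 against DMSO. They were chosen with earlier results of these data known, so they are no independent reference. Of 29 proteasome genes 15 were above DMSO, at a median of 0.00. Autophagy genes stood at 0.01 with 14 of 25 above, circadian clock genes -0.06 with 8 of 18 and calcium and S100 genes -0.04 with 8 of 22, and every measured member of these 4 lists lay within 0.5 of DMSO. S100a8, higher by 1.19, stood in the acute phase list and not in the calcium and S100 list. Lysosomal genes had 23 of 29 above DMSO at a median of 0.08, all within 0.5 of it too, but 14 of 29 above control siRNA at a median of -0.01. For the unfolded protein and amino acid stress list the median was -0.04 against DMSO, but 0.27 against control siRNA, with 24 of 27 above the latter. Its members ran to Chac1, which degrades glutathione, at -0.60 and Dnajb9, an ER chaperone partner, at 0.50. Ribosome biogenesis genes were at -0.07 against DMSO and 0.23 against control siRNA, with 27 of 29 above the latter. Hox genes and Kruppel-like factors had medians of -0.03 and 0.03, with Hoxa3 at 1.06 (0.74 against control siRNA) and Klf15 past 2-fold. The 4 Hoxa3 probe sets ran from -0.10 to 1.06. In all, 8 of the 56 lists had over 75% of their measured members above DMSO and 9 had under 25%.

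**Figure D5:**
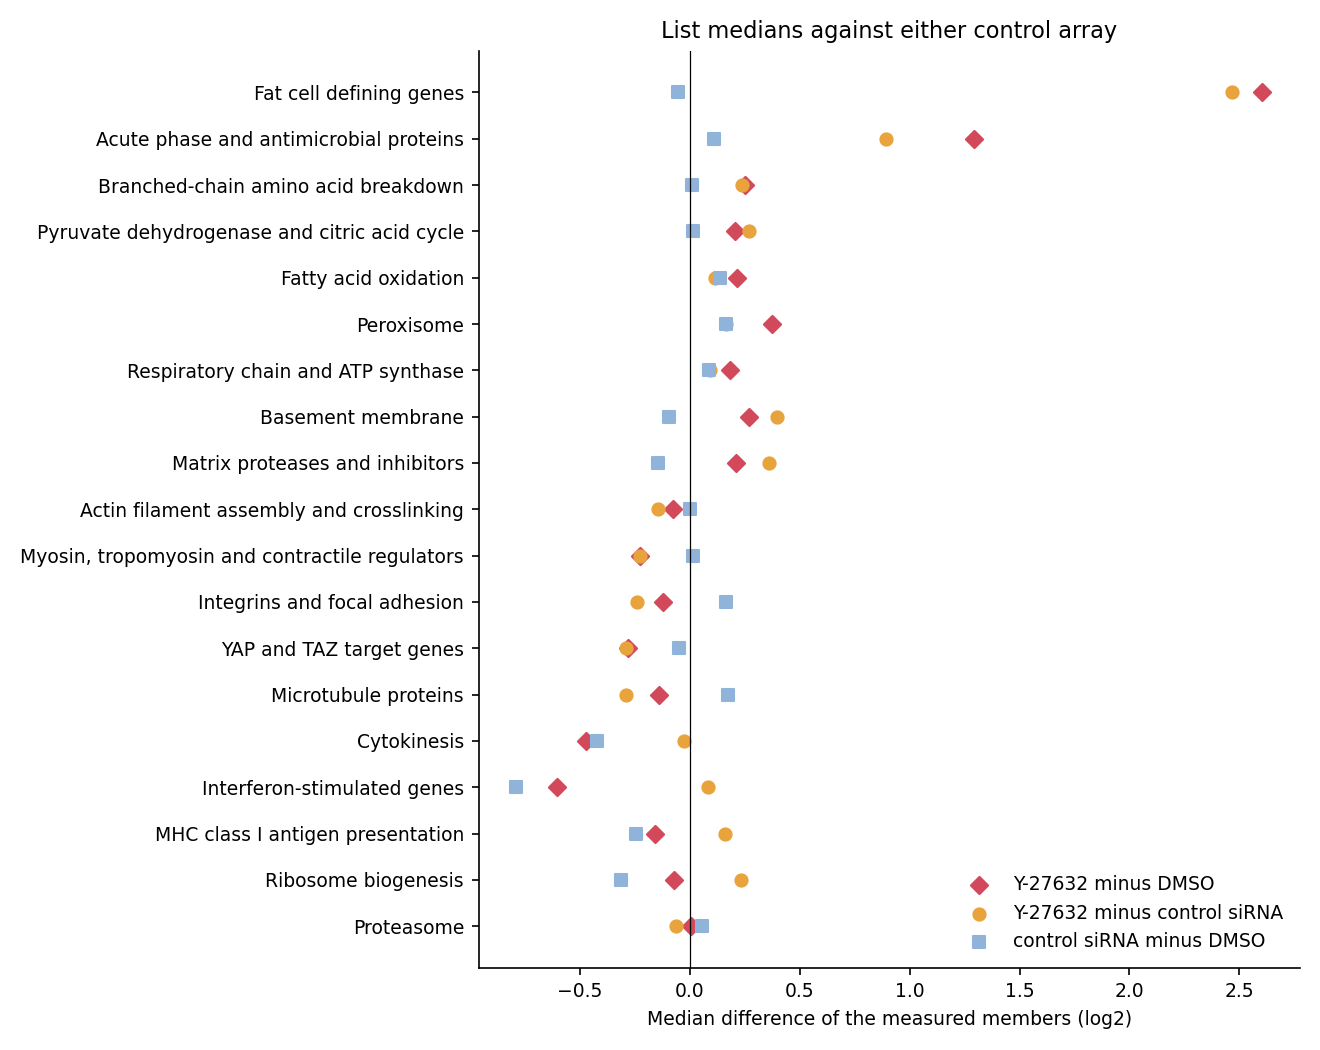
Median log2 difference of the measured members of the same lists for Y-27632 minus DMSO (red diamonds), Y-27632 minus control siRNA (orange circles) and control siRNA minus DMSO (blue squares). Diamonds and circles nearly coincide for the branched-chain amino acid, myosin and YAP-TAZ lists, whereas the blue square lies close to the red diamond for cytokinesis and further from 0 than the diamond for interferon-stimulated genes and ribosome biogenesis.

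Several of the 20 highest genes belong to no class above. Rgcc, a regulator of the cell cycle, read 6.29 with DMSO, 9.93 with Y-27632, 6.92 with control siRNA and 10.96 with Mkl1 siRNA. The membrane protein Tmem182 read 3.93, 6.95, 4.11 and 5.85, and Reep6, which shapes the endoplasmic reticulum, read 5.68, 8.36, 5.18 and 8.15. All 3 were low on both controls and high on both treated arrays.

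Cdo1, cysteine dioxygenase, which starts the breakdown of cysteine to taurine, read 5.51 with DMSO, 7.99 with Y-27632, 5.44 with control siRNA and 7.39 with Mkl1 siRNA. Fcor, a corepressor of Foxo1, read 4.35, 6.76, 4.40 and 7.74. Enpep, the aminopeptidase that trims angiotensin II, read 6.82, 9.24, 7.57 and 10.15, and Anxa8 read 4.85, 7.28, 5.80 and 7.84. Differences from DMSO were 2.48, 2.41, 2.42 and 2.43, and from control siRNA 2.55, 2.36, 1.66 and 1.47. For 82 of the 147 higher genes Mkl1 siRNA too exceeded its control by 2-fold or more, against 1.79% of all measured genes, and 32 lay the other way, against 49.8% of all. For 5 of the 26 lower genes Mkl1 siRNA too was under its control by 2-fold or more, against 1.74% of all. These comparisons share no array.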

How the data were processed

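Total RNA of mouse DFAT cells was read on 4 single-colour Affymetrix mouse arrays. Per the submitters' processing notes the authors used RMA, and the deposited numbers are read as log2 signals from their range. Neither the RMA version nor the chip definition is given in the sources used here. RMA normalises by quantiles, which hides differences in total RNA per cell. Gene names came from the platform annotation: of 45101 probe sets 34958 had 1 symbol, 932 several and 9211 none, and 34754 were matched to RefSeq (GRCm38.p6). Differences of log2 values were computed with Python 3.11.15, pandas 2.3.3 and numpy 2.4.6 and tested on simulated data. The alternatives were other probe set choices, filters, centring, threshold and control array. The rule for named genes gave the 20 highest genes, all genes at least 2-fold lower, members of each list past 2-fold or up to 4 furthest on each side, and Rock1, Rock2, Mrtfa, Mrtfb, Srf, Actb, Actg1, Acta2, Pparg, Cebpa and Adipoq. A further gene of that rule and a gene list are not reported here, and of list members short of 2-fold the text gives some. Cat, Myl9, Cnn2, Myl6, Myo1e, Lima1 and the genes just outside a threshold were chosen after their values were seen. The comparison, the 56 gene lists and their members were chosen with earlier results of these data known.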

Additional observations from a re-analysis of the deposited data

Results flagged for a closer look

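Probe sets with no gene symbol or with several were left out of the gene values and also differed. Of 3386 such probe sets at the same filter, 30 were at least 2-fold higher with Y-27632 than with DMSO (0.886%), and 10 stood below DMSO by 2-fold or more (0.295%). Against control siRNA 22 of the 30 and 2 of the 10 passed 2-fold in the same direction. The highest difference among them was 4.63 and the lowest -1.71 on the log2 scale.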

How the results depend on the processing

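No paired analysis was possible because each group has 1 array, and no replicate could be left out. The counts of 147 higher and 26 lower genes became 96 and 14 with a filter at the 75th percentile (8.08), 236 and 87 with control siRNA as control, and 348 and 154 at 1.5-fold. Averaging a gene's probe sets gave 110 and 20, and the counts stayed within 1.5 times the main counts under the other settings run (no filter, loess, median subtracted, no probe sets that may bind several transcripts). With control siRNA as control, 19 of 56 list medians lay on the other side of 0. For interferon-stimulated genes and ribosome biogenesis 74.1% and 93.1% of members stood above control siRNA, against 0% and 27.6% above DMSO. On the other side of 0 were also 14 of 111 genes followed: Ccl11 (-0.62), Cemip (0.074), Clca3a1 (1.24), Cxcl14 (-1.26), Egr3 (-0.31), Id2 (-0.089), Ifi213 (1.31), Inhbb (-0.38), Irf7 (0.072), Mgp (-0.74), Oas3 (0.63), Slc1a6 (1.15), Slit2 (-0.47) and Sprr1a (0.64). The cause was not tested. A further 28 of the 111 kept their side but were short of 2-fold, as were 21 when a gene's probe sets were averaged. Signals near background and the single array of each group limit all these values.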

Other observations

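Some groups that are not among the gene lists were chosen after their values were seen and are given as values only. Members can also stand in a list, as Agt does in the fat cell list and Agtr2 in that of G-protein-coupled receptors. In the renin-angiotensin system Agt, the hormone precursor, read 9.61 with DMSO, 11.40 with Y-27632, 11.10 with control siRNA and 12.06 with Mkl1 siRNA, so most of its 1.79 above DMSO was also present with control siRNA. Agtr1a, the classical receptor, differed by -0.29, against 1.94 for Agtr2 and 2.42 for Enpep. In sulfur metabolism Tst, the mitochondrial sulfurtransferase rhodanese, read 6.49, 8.24, 6.23 and 7.99 on the same arrays, close to the pattern of Cdo1, while Suox, Sqor and Mpst differed from DMSO by 0.20, 0.11 and -0.21. The receptors of GDNF, Ret and Gfra1, were higher by 1.72 and 1.39, but Ret was -0.54 from control siRNA and Gfra1 was 2.10 above it. Gch1, which starts tetrahydrobiopterin synthesis, and its regulator Gchfr were higher by 1.31 and 1.12, or by -0.02 and 1.497 against control siRNA.

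Some stromal genes set the DMSO and Y-27632 arrays apart from both siRNA arrays. Scara5, a ferritin receptor, read 10.14 with DMSO, 11.34 with Y-27632, 6.62 with control siRNA and 7.55 with Mkl1 siRNA. Its other probe set differed from DMSO by -0.01. Abca8a, a membrane transporter, read 10.51, 11.68, 8.11 and 7.67, and Rgs13, a G-protein regulator, read 5.93, 7.89, 2.98 and 2.41. Dcn followed at 12.62, 13.56, 10.55 and 11.16. For these genes the difference between the control arrays exceeded the 1.19, 1.16, 1.97 and 0.95 by which Y-27632 stood above DMSO. The cause was not tested. The alarmin Il33 and the tetraspanin Cd53 were higher with Y-27632 than with DMSO by 1.20 and 1.30 and lower with Mkl1 siRNA than with control siRNA, at -1.67 and -0.92.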
